A study of Mus musculus with 6 samples.

Results

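On a one-colour Agilent mouse array, 7284 of 56605 probes that were not control spots carried an Ensembl transcript accession (ENSMUST) as their systematic name. These ENSMUST probes were chosen by that prefix alone, and they stood for 7098 transcripts. The cells were C8D1A, an established mouse astrocyte line derived from a single clone, so the values describe 1 line and not astrocytes in tissue. The control group held 3 arrays of untreated cells, and the PRF group held 3 arrays of cells given pulsed radiofrequency, short bursts of high-frequency current used clinically against neuropathic pain. Both groups had been moved to serum-free medium before use, no genotype difference is labelled, and the labels give 3 independent experiments. No source used here gives the settings, length or timing of the stimulation.

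Ensembl transcripts come from automatic gene building joined with manual curation, and the catalogue is wider than the curated mRNA set of RefSeq, whose accessions start with NM_. Besides coding isoforms it holds long noncoding RNAs, transcribed pseudogenes, antigen receptor segments and processed transcripts that keep an intron. Many such RNAs are scarce, lie close to or inside coding genes, and are copied from poly(A) tails by the labelling chemistry used here only where they have one. The files pair no ENSMUST accession with a gene. The RefSeq table of assembly GRCm38.p6 lists no Ensembl accessions, so none of the 7284 probes could find a symbol through it. Of 29638 NM_ probes 29339 did. The members are therefore described by transcript accession and by group, without gene names or positions. Whether RefSeq also holds a transcript at the same place was not checked, so "Ensembl-only" describes the array's label and not the genome. An ENSMUST probe that overlaps another gene or a near-identical copy may also bind that RNA.

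The labelled cell type was checked against fixed markers. Of 12 astrocyte markers 10 were well above background on all 6 arrays, and the probes of Slc1a3, a glutamate transporter, and Gja1, a gap junction protein, were so on none. All 7 markers of the oligodendrocyte lineage were also well above background on all 6 arrays, as were 3 of 6 neuronal, 3 of 6 microglial, 1 of 4 endothelial and 2 of 5 fibroblast markers. In bulk RNA fewer cells of a type and less RNA per cell cannot be told apart. All arrays lay on 1 slide, in 2 rows of 3 arrays. Before scaling, the 75th percentile of the signal ran from 597 to 674 on control arrays and from 544 to 634 on PRF arrays. The number of arrays limits the precision of every value below.

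Most ENSMUST probes gave a signal in these cells. The scanner software's flag for spots well above background was set for 60.4%, 58.6% and 58.3% of them on control replicates 1, 2 and 3 and for 61.4%, 61.3% and 60.3% on PRF replicates 1, 2 and 3. The lowest PRF array lay just under the highest control array, so the groups overlapped, although PRF was higher within each array row and within each pair of the same replicate number. The share was 59.1% ± 1.16 in the control group and 61.0% ± 0.643 in the PRF group (SD, n = 3), a difference of 1.91 percentage points. NM_ probes were flagged more often, 68.6% ± 0.672 against 71.3% ± 0.758 (SD, n = 3), with a difference of 2.73 points and no overlap. Probes for full-length cDNA clones (AK accessions) differed by 3.45 points and those for predicted noncoding RNAs (XR_ accessions) by 4.25 points. No test was made of these shares or of the differences between classes.

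Most members kept their detection state. Of the 7284 probes, 3941 (54.1%) were well above background on all 6 arrays, 2423 (33.3%) on none and 920 on some. Detection was gained, from no control array to all 3 PRF arrays, by 126 of 2753 probes (4.58%), where the same change was seen in 5.38% of all such probes of the array. The reverse, from all control arrays to no PRF array, was seen in 17 of 2593 members (0.656%) against 0.417% of all probes. Counting any change in the number of arrays, 502 of the 7284 members were flagged on more PRF than control arrays and 340 on fewer. Of the 29638 NM_ probes, 1755 were flagged on more and 606 on fewer. As shares of their class, both counts were larger in the members.

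Gains were more frequent among members with a higher control level. Levels are log2 signals minus the array's 75th percentile, and they depend on the probe's binding as well as on the RNA. Among ENSMUST probes on no control array, 2.31% gained detection at control levels from -9 to -8, 2.93% from -8 to -7, 12.5% from -7 to -6 and 23.1% of 39 probes from -6 to -5. NM_ probes gained detection in 27 of 1347 in the lowest bin and in 3.89%, 18.3% and 25.3% in the next bins. Weighted to the members' distribution over the bins, the NM_ share was 6.10%, so that members minus NM_ probes came to -1.52 points. With the scanner's flag for positive and significant spots in place of the flag for spots well above background, the difference was -0.016 points. The 308 negative control spots of each array had median signals of 2.54, 2.57 and 2.59 on control arrays and 2.64, 2.30 and 2.38 on PRF arrays. Members detected on no array lay close to them, with medians of 2.67, 2.65 and 2.70 against 2.77, 2.41 and 2.47. After scaling the negative controls stood at -8.05, -7.95 and -7.85 in control and at -7.91, -7.88 and -7.86 in PRF. Their part in the gains was not tested.

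Expression of the ENSMUST transcripts was then compared between groups. The test took in each probe flagged as well above background throughout at least 1 group of 3 arrays, and "called" means an adjusted p below 0.05 over all 34838 tested probes (limma, Benjamini-Hochberg). This filter passed 4357 members and left out 2927, and it let in a probe dim in control cells only if it was bright after PRF. Of the tested members 839 (19.3%) were higher and 634 (14.6%) lower in PRF cells, against 18.4% and 12.7% of all tested probes. Changes of at least 2-fold were called upward in 325 members (7.46%) and downward in 55 (1.26%), against 8.35% and 0.746% of all. The shares of rises were thus close to the background. Over the tested members the median log2 change was 0.040, and over all tested probes it was 0.018.

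Overlap between the arrays of the groups was also counted. The 3 PRF arrays lay wholly above the control arrays in 1302 tested members (29.9%) and wholly below them in 986 (22.6%), against 27.7% and 22.5% of all tested probes. Of the 839 rises 838 were of this kind, and so were all 634 falls. The calls were made on the same 6 arrays, so this separation adds no evidence for them. Within array row 1 and within array row 2 the 839 rises had medians of 0.80 and 0.80 and the 634 falls of -0.58 and -0.57 (the rows hold the same 6 arrays that made the calls). Correlations between arrays over the tested members were 0.994 to 0.997 for arrays of the same group and 0.963 to 0.979 for arrays of different groups, as a description of arrays that share 1 slide. With array row as a block 702 members were called upward and 462 downward. Together these were 1164 of 4357 tested members, against 8525 called among all 34838 tested probes. Within a single row 1 array stands for a group, and fewer probes were called there, among members and among all tested probes alike.

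The balance of rises and falls depended on the scaling. Of the called members 57.0% were rises with the 75th percentile subtracted and 48.8% when the median was subtracted instead. Quantile normalization gave 37.1%, the unscaled deposited signal 35.1% and scaling to the spike-in controls 30.2%. Over all called probes the shares of rises were 59.2%, 49.5%, 41.4%, 38.3% and 29.8% in the same order. The median of all tested probes moved from 0.018 to -0.036, -0.060, -0.12 and -0.18 in the same order. Members called at least 2-fold higher outnumbered those at least 2-fold lower under each of these, from 325 against 55 to 245 against 198 with quantile normalization. With normexp background correction 61.9% of the called members were rises, against 61.1% of all called probes. Both counts of 2-fold changes then fell, to 100 and 6. This setting adds an offset of 50 to each signal, which by itself makes the log2 changes of dim probes smaller. Without PRF replicate 1 the falls of at least 2-fold numbered 28, without PRF replicate 3 they numbered 109, and without control replicate 1 the falls of any size numbered 415.

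Of the 3941 members well above background on all 6 arrays, 648 rose (16.4%) and 601 fell (15.2%), against 14.8% and 13.3% of the 32018 probes of the whole array that met the same condition. Rises made up 51.9% of the calls of these members and 52.7% of those of all such probes, with the 75th percentile subtracted. The rises had a median of 1.58-fold and reached 26.7-fold, with 155 of at least 2-fold (3.93%, against 4.40% of all such probes) and 33 of at least 4-fold. The falls had a median of 1.49-fold and reached 3.03-fold, with 46 of at least 2-fold (1.17%, against 0.600%) and 0 of at least 4-fold. A change smaller than 1.5-fold made up 268 of the rises and 311 of the falls. The filter shapes the remaining calls: 124 of the 126 members that gained detection passed upward, and 13 of the 17 that lost it passed downward.

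ENSMUST00000189439 had the largest rise among members bright enough for all 6 arrays. Control replicates 1, 2 and 3 gave levels of -4.16, -4.30 and -3.89, and PRF replicates 1, 2 and 3 gave 1.21, 0.49 and 0.17. The groups lay far apart, with PRF replicate 1 highest. The transcript was 26.7-fold higher (4.74 on the log2 scale, SE 0.27, adjusted p = 1.40e-04). With normexp the log2 change was smaller, at 3.34. The next 11 rises of this kind ran from 24.2-fold to 6.50-fold, all from control levels between -4.86 and -2.72, so that each began well below the array's 75th percentile. Only 1 of these 12 transcripts had a further tested probe, which was not called. The log2 changes of its probes were 2.84 and 0.35 (adjusted p = 0.0633 for the latter).

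ENSMUST00000159898 was well above background on no control array and on all PRF arrays. It had levels of -6.08, -7.01 and -7.06 in control and 0.67, -0.060 and -0.49 in PRF cells. Since its control signals are not above background, only a bound is given: the PRF mean is set against a control mean in which each array contributes its lowest signal flagged as well above background, or the probe's own signal if that is higher. It was at least 56.2-fold higher (adjusted p = 1.31e-04). The probe passed the filter only through the PRF group, so this p describes a member that had to differ. With normexp its fitted log2 change was 3.29 in place of 6.76, so the bound holds for the main background setting only. The 124 members of this kind that rose had a median bound of 2.60-fold, with 39 of at least 4-fold, and the next 5 after ENSMUST00000159898 ran from 25.8-fold down to 15.8-fold.

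ENSMUST00000160611 had the largest fall among members on all 6 arrays. Its levels were -2.13, -2.10 and -1.97 in control and -4.36, -3.61 and -3.04 in PRF cells. The control arrays lay close together and the PRF arrays were spread, with PRF replicate 1 lowest. The transcript was 3.03-fold lower (a log2 change of -1.60 with SE 0.31, adjusted p = 0.0111). With normexp the log2 change was -0.89. The next 11 falls ran from 2.81-fold to 2.39-fold. They included both probes of 1 transcript, with log2 changes of -1.42 and -1.30 (adjusted p = 0.00673 and 0.00861).

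ENSMUST00000102863 was flagged on each control array, at levels of -5.06, -4.54 and -4.40, and on no PRF array, at -6.06, -5.59 and -5.55. The groups did not overlap. It was at least 1.94-fold lower (adjusted p = 0.0124), again for a probe that passed the filter through 1 group, and the largest bound among the 13 falls of this kind, whose median was 1.43-fold. With normexp its change shrank to -0.092 and was not called (adjusted p = 0.42, the highest over 17 alternatives, of which the lowest was 0.0017).

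PRF replicate 1 stood farthest from the controls in most called members. Among the 648 rises on all 6 arrays, PRF replicate 1 was farthest in 389 and PRF replicate 3 nearest in 441 (68.1%). Among the 601 falls these counts were 438 (72.9%) and 425 (70.7%). Median distances from the control mean were 0.76, 0.68 and 0.53 on PRF replicates 1, 2 and 3 for the rises and -0.71, -0.57 and -0.44 for the falls. NM_ probes showed the same arrays at the ends, with PRF replicate 1 farthest in 56.0% of 2230 rises and 60.6% of 2422 falls. All 12 of the largest rises and 11 of the 12 largest falls of the members had PRF replicate 1 farthest.

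ENSMUST probes lay at lower signal than NM_ probes, which bears on any comparison between them. Over members on all 6 arrays the median level was between -1.49 and -1.43 on each array, against 0.47 to 0.55 for NM_ probes. Of 4093 members well above background on all control arrays 31.9% had a control level below -3, against 16.8% of 19782 NM_ probes. At the bright end the order turned, with 361 members (8.82%) at a level of 5 or more against 1054 NM_ probes (5.33%). Calls were therefore set side by side within bins of control level 1 log2 unit wide, over probes well above background on all control arrays.

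Within these bins falls were called in a larger share of ENSMUST than of NM_ probes. Downward calls made up 15.5% of the members and 10.9% of NM_ probes weighted to the members' bins, a difference of 4.62 points. Below a control level of -3 the shares were 12.0% and 5.44%, from -3 to 2 they were 22.0% and 16.1%, and at 2 and above 4.09% and 10.2%, so the sign turned among bright probes. At control levels from -1 to 0 falls made up 23.9% of members and 17.1% of NM_ probes. Falls of at least 2-fold made up 1.34% against 0.493%. The difference in falls was 2.86 points when the bins were set by control replicate 1 and the calls were made without it, 3.32 with normexp and 6.14 on the deposited scale. No test of this difference was made. AK and XR_ probes, weighted in the same way, fell in 17.5% and 15.9%, with falls of at least 2-fold in 1.86% and 1.36%. Falls were thus no rarer in these classes than in the members.

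Rises did not differ in 1 direction. Upward calls made up 15.8% of the members and 14.6% of the weighted NM_ probes, a difference of 1.27 points that was -0.0087 on the deposited scale and -0.065 without control replicate 3. Rises of at least 2-fold were called less in members, 3.79% against 5.02%. Below a control level of -3 rises made up 19.1% of members and 23.8% of NM_ probes, from -3 to 2 they made up 16.0% and 10.4%, and at 2 and above 9.89% and 6.00%. From -5 to -4 rises made up 17.2% of members and 25.8% of NM_ probes, and from 0 to 1 they made up 19.2% and 7.24%. The median spread within groups was 0.22 and 0.21, 0.13 and 0.10, and 0.079 and 0.071 in the same ranges for members and NM_ probes. Weighted in the same way, AK probes had 23.4% rises and 17.5% falls and XR_ probes 18.3% and 15.9%. These values describe the probes of 6 arrays, and no class was tested against another.

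The median change of the brightest members depended on the scaling. The 361 ENSMUST probes at a control level of 5 or more had a median change of 0.13 with the 75th percentile, which became 0.080 when the median was subtracted, 0.027 after quantile normalization, -0.0067 for the unscaled signal and -0.063 after scaling to the spike-in controls. With the 75th percentile, medians at control levels 5 to 6, 6 to 7 and 7 to 8 were 0.14, 0.14 and 0.13 in members. Those of NM_ probes in the same bins were 0.043, 0.086 and 0.11. A subset of 123 members was spotted 10 times per array, and 121 of them were well above background on each array. Their tested probes had a median control level of 6.88, so many of them are among the 361 bright members. Their part in the share of bright members and in the calls at bright levels was not tested. Spots of the same probe differed little within an array, with median SDs between 0.034 and 0.041 where the probe was detected. Of these 121 probes 4 were called upward and 0 downward (limma, with 29 and 0 at an unadjusted p below 0.05), against 835 and 634 of the 4236 members spotted once, which had a median control level of -1.94. Their median standard error was 0.069, against 0.11 for members spotted once.

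Several probes for a transcript give a check within the members, since they share a target. Of 7098 ENSMUST transcripts 175 had several probes, and 84 had at least 2 that were tested. All tested probes were called the same way in 14 transcripts, 8 upward and 6 downward. In 20 some probes were called, in 50 none was, and in 0 were probes called in opposite directions. Of 4636 NM_ transcripts with at least 2 tested probes, all probes were called the same way in 477, some in 1002 and none in 3118. Opposite calls were seen in 39 of them. The 84 ENSMUST transcripts are too few to compare so rare an outcome. The probes of an ENSMUST transcript differed in log2 change by a median of 0.11, and by more than 1 in 7.14% of the 84 transcripts. For NM_ transcripts the median was 0.12 and the share 3.47%.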

How the data were processed

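Per the file headers, the deposited intensity values of each array were made with Agilent Feature Extraction 10.7.3.1 on a design that refers to build mm9, and they are background-corrected but not normalized between arrays. The authors' deposited series table held the same intensity values, equal within a relative tolerance of 1e-04 after spots were averaged. No source used here says how the authors tested them. Spots marked as outliers were left out (63 to 85 per array), spots of a probe were averaged as log2 signal, and a probe counted as well above background if over 50% of its spots were. The 75th percentile of each array was subtracted. Models were fitted over the whole table with limma 3.58.1 (lmFit, eBayes) under R 4.3.3. Group was the sole factor, and Benjamini-Hochberg adjustment ran over all tested probes. The fit was tested on simulated data. The members and lists were chosen with earlier results of these data known. Named transcripts were those with the largest called change or bound whose groups did not overlap, limited to 2 rises and 2 falls because accessions could not be paired with genes. The files hold no probe sequences, so none is shown. Alternatives covered scaling, background correction, the filter, blocks, the call rule, bins and each array left out. Normexp used median signals, with an offset of 50. Replicate numbers, which are also the array columns, were not used as pairs in the main fit. Deviations of same-numbered arrays correlated at 0.15, -0.084 and 0.046, and those of differently numbered arrays at -0.17 to 0.13. With 3 arrays in a group these values cannot decide whether the samples were paired.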

Additional observations from a re-analysis of the deposited data

How the results depend on the processing

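Upward calls of ENSMUST probes (839) became 508 on the deposited scale, and downward calls (634) became 1084 with quantile normalization, 1362 with spike-in scaling and 353 at the plain threshold (unadjusted p below 0.05 and 1.5-fold). Rises of at least 2-fold (325) became 100 with normexp and 155 with the filter on all 6 arrays, and falls of at least 2-fold (55) became 198, 127, 162 and 6 with quantile normalization, the deposited scale, spike-in scaling and normexp. Within array row 1 there were 310 rises and 129 falls, and within row 2, by limma, 10 rises, all at least 2-fold, and 0 falls (296 at an unadjusted p below 0.05). With 1 array of a group left out, rises ran from 600 to 837, falls from 415 to 683, and 2-fold rises from 273 to 387 and falls from 28 to 109. NM_ rises (2967) became 1797 on the deposited scale, 1178 and 75 within rows 1 and 2, and 2190 to 2936 with an array left out. NM_ falls (2456) became 3822, 3777 and 6627 with quantile normalization, the deposited scale and spike-in scaling, 1493 with no filter, 608 at the plain threshold, 180 and 0 within rows 1 and 2 (688 at an unadjusted p below 0.05 in row 2), and 1154 to 2461 with an array left out. The level-weighted difference in rises, 1.27 points, was -0.0087 on the deposited scale, -1.23 for 2-fold calls, and -0.065 to 0.84 with an array left out. That in falls, 4.62 points, was 6.14 on the deposited scale, 3.32 with normexp, 2.86 with bins by control replicate 1, 0.851 for 2-fold calls and 2.98 to 5.71 with an array left out. The difference in detection gains was -0.016 with the scanner's flag for positive and significant spots. The cause of these shifts was not tested, and the normexp offset by itself shrinks the changes of dim probes. A replicate block gave 751 rises and 520 falls, of which 706 and 473 were among the main calls, and a difference in falls of 3.46 points. The 4 named transcripts kept their direction under every alternative run and their call except within row 2 and, for ENSMUST00000102863, within row 1 and with normexp. Within row 2, where the control group is 1 array, their log2 changes were 4.99, 7.11, -1.59 and -1.26, against 4.74, 6.76, -1.60 and -1.06 over all arrays (in the order ENSMUST00000189439, ENSMUST00000159898, ENSMUST00000160611, ENSMUST00000102863). The 2-fold version of the level-weighted differences and the count of each transcript once were chosen after seeing the data.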

Other observations

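Members were also split into 3 groups of similar size by the number in their accession, a property that was not used to choose them and that names no gene. In the group with the lowest numbers (up to 123536), 242 of 1430 tested probes rose and 119 fell (16.9% and 8.32%), with a median control level of -0.46. In the middle group 328 of 1518 rose and 289 fell (21.6% and 19.0%), at a median control level of -2.49, and in the group with the highest numbers 269 of 1409 rose and 226 fell (19.1% and 16.0%), at -1.92. Detection on all 6 arrays varied less, from 51.7% to 56.3%. Of all tested probes of the array 18.4% rose and 12.7% fell. The 3 groups were not matched by control level, with which the shares called also varied. By probe series, members of the A_65 series were well above background on all 6 arrays in 81.2% of 191 probes, and those of the A_51 series in 42.7% of 513. The split was made after the values were seen, and no test was made.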
